A study of Mus musculus with 8 samples.

Results

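Eicosanoids are short-range lipid signals made from arachidonic acid, a fatty acid released from membranes by phospholipases. Lipoxygenases add oxygen to it to give hydroxy fatty acids and, through 5-lipoxygenase and its activating protein, the leukotrienes that attract and activate white blood cells. Cyclooxygenases convert it into a common intermediate from which terminal synthases make prostaglandins, prostacyclin or thromboxane. In the lung these mediators are known for constricting airways and vessels, for recruiting leukocytes and, in the case of thromboxane and prostacyclin, for opposite actions on platelets. The genes described are 10 enzymes or helper proteins of both routes, picked by name with earlier results of these data known. They are Alox12, Alox15, Alox5, Alox5ap, Lta4h and Ltc4s for the lipoxygenase branch, and Ptgs1, Ptgs2, Tbxas1 and Ptgis for the cyclooxygenase branch. Counts among them, set below beside shares of all genes, are therefore descriptions and not tests. A gene was read from the array feature (transcript cluster) annotated with its symbol alone, and 9 of the 10, among 30176 genes with such a feature, could be read, each from 1 feature. Ptgs1, the constitutive cyclooxygenase, was not analysed here.

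RNA was measured in whole lungs of 4 mice lacking Atf4 (ATF4 KO in the sample titles, genotype Atf4D/D) and of 4 mice with intact alleles (ATF4 WT, genotype Atf4wt/wt), with 1 Clariom D mouse array per animal. The ATF4 protein switches on genes that help cells cope with amino acid shortage and misfolded proteins. Both groups carried a tamoxifen-activated Cre recombinase (CreERT2) expressed from the ubiquitous Rosa26 locus and both received tamoxifen, so the floxed Atf4 alleles of the KO mice could be excised in every cell type, blood cells included. All mice were 13 weeks old, each group held 3 males and 1 female (KO replicate 2 and WT replicate 3), and the lungs were collected tumour-free at 4 weeks after tamoxifen, to describe the organ before any tumour cell arrives. Values are log2 signals, so a difference of 1 is a doubling. A gene is said to have risen or fallen where limma gave an adjusted p of at most 0.05 over all 65956 transcript clusters and the fold exceeded 1.5.

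The targeted gene was lower in KO lungs. Atf4 read 6.34, 6.26, 6.48 and 6.38 in KO replicates 1 to 4, against 6.99, 8.03, 8.0 and 7.58 in WT replicates 1 to 4, and fell by 1.29 on the log2 scale (SE 0.21, adjusted p = 0.0485, limma). WT replicate 1 lay nearest to the KO lungs. Sftpc, the surfactant gene of alveolar type 2 cells, averaged 18.60 ± 0.10 in KO lungs and 18.79 ± 0.09 in WT lungs (SD, n = 4 each), near the top of the range of 2.09 to 19.7 over all features, which fits the tissue label. Median signal per array lay between 5.21 and 5.29.

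Of the 9 enzymes measured, 2 rose in KO lungs and 0 fell. The background was that 0.229% of all clusters were called higher and 0.047% lower, 0.276% in all, and that 0.408% of the 30176 genes were called higher and 0.0597% lower, 0.467% in all. The 2 were Alox12, the platelet-type 12-lipoxygenase, at 10.7-fold, and Tbxas1, the thromboxane synthase, at 2.08-fold, so each branch held 1. Both calls were lost with sex as a covariate (adjusted p = 0.0717 for Alox12 and 0.0507 for Tbxas1), in males only (0.313 and 0.164), with the replicate number as a block (0.192 and 0.112) and with the methods' t-test (0.237 and 0.207), and that of Alox12 also with trend and robust eBayes (0.0822). Some of these fits called few or no clusters of any gene. The main fit called 151 clusters higher and 31 lower, males only 3 and 1, and the block and the methods' test 0. Losses in those fits are therefore not particular to the 2 enzymes. The sex term left 103 and 23 calls, and trend and robust eBayes 140 and 30. At an unadjusted p under 0.05 the main fit gave 4 of 9 enzymes, all higher. The shares were 12% of all clusters (4.4% higher and 7.63% lower) and 13.5% of genes (6.26% higher and 7.19% lower). In 3 enzymes (Alox12, Alox5 and Tbxas1) every KO lung read above every WT lung and in 1 (Lta4h) every KO lung read below, beside 2.83% and 4.41% of all clusters (7.24% in all) and 4.32% and 4.67% of genes (9% in all). The median difference was 0.44 over the 6 lipoxygenase-branch genes and 0.43 over the 3 measured cyclooxygenase-branch genes, against -0.03 over all clusters. Differences ran from -0.15 to 3.42 in the lipoxygenase branch, with Alox12 at the top, and from -0.22 to 1.06 in the cyclooxygenase branch. The cyclooxygenase median is the value of Ptgs2 alone and was 0.18 without WT replicate 4, against a lipoxygenase median of 0.46, and 0.78 in males only, against 0.29, so the data set no order between the branches. In whole lung, a change in the number of cells of a type and a change in RNA per cell cannot be told apart.

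**Figure D1:**
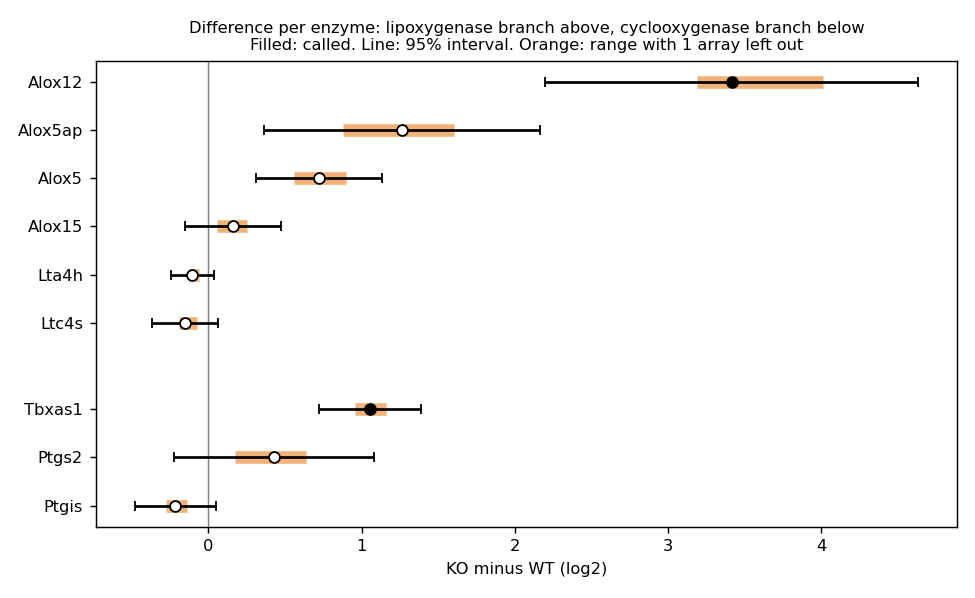
Difference between KO and WT lungs (log2, horizontal axis) for the 9 measured enzymes, with the lipoxygenase branch above and the cyclooxygenase branch below; points are limma estimates from 4 against 4 arrays, filled where called, black lines are 95% confidence intervals and orange bars span the estimates with any 1 array left out. Alox12 at 3.42 and Tbxas1 at 1.06 are the 2 filled points, and the intervals of Alox5 and Alox5ap also lie above 0.

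Both enzymes that rose are shown with the stretch of genome before their annotated start, as listed by RefSeq for GRCm38.p6. For Alox12 this is chr11:70255381-70255620 on the minus strand, that is, the first 240 bases of the 250 before the listed start, the last 10 being left out because they lie inside the gene record; capitals mark GC boxes (GGGCGG). For Tbxas1 it is chr6:38918736-38918985 on the plus strand, 250 bases before a start that lies inside the gene record, so that other transcripts of the gene begin further upstream; capitals mark the NF-E2 motif (TGCTGA and TCA with 1 base of any kind between them, which holds the shorter AP-1 motif TGANTCA), named for a transcription factor of megakaryocytes and red cell precursors.
Alox12: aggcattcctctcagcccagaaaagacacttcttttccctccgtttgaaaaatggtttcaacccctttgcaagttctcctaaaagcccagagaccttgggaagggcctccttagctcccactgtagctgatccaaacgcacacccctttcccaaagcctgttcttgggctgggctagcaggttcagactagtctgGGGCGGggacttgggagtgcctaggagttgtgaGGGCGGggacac
Tbxas1: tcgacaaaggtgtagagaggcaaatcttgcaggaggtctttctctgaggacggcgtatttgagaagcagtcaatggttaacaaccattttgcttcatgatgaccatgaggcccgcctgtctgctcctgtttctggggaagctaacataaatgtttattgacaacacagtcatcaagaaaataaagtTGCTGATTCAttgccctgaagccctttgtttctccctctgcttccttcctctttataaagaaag

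Of the 10 genes, 7 had a listed promoter. The 250 bases before each start were searched on both strands, and each motif is given with its share among 32851 listed promoters. The NF-E2 motif occurred in 0.353% of them and in 1 of the 7, Tbxas1, starting 64 bases before the start. GC boxes occurred in 32.7% of promoters and in 3 of the 7, namely Alox12 (2 boxes, starting 55 and 22 bases before the start), Alox5 and Ptgs2. The RUNX motif TGTGGT stood in 14.0% of promoters and in Ltc4s and Ptgs2. The C/EBP-ATF composite motif TGATGNAA (3.45% of promoters), the cyclic AMP response element TGACGTCA (1.55%) and the GATA motifs AGATAA (9.99%) and TGATAA (7.94%) had no match in the 7 windows. A match is a run of letters and not evidence of binding.

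Alox12 makes 12-hydroxyeicosatetraenoic acid, the main lipoxygenase product of platelets. Its feature (TC1100003090.mm.1) read 13.62, 13.43, 13.37 and 12.41 in KO replicates 1 to 4, against 9.11, 9.29, 9.18 and 11.59 in WT replicates 1 to 4. The groups did not overlap, but KO replicate 4 was the lowest KO lung and WT replicate 4 stood well above the other WT lungs. The mean was 13.21 ± 0.54 in KO lungs and 9.79 ± 1.20 in WT lungs (SD, n = 4 each), a difference of 3.42 (SE 0.54, 95% CI 2.20 to 4.63, adjusted p = 0.0462, limma). Without WT replicate 4 the difference was 4.01 (adjusted p = 0.00207), and without any other single array the call was lost, at adjusted p between 0.0577 (without WT replicate 1) and 0.158 (without KO replicate 1). The difference itself lay between 3.19 and 4.01 with any 1 array left out. Calls over all clusters also changed between these fits. They were 151 higher and 31 lower with all 8 arrays, 7 and 1 without KO replicate 1 and also without WT replicate 3, and 145 and 121 without WT replicate 1.

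**Figure D2:**
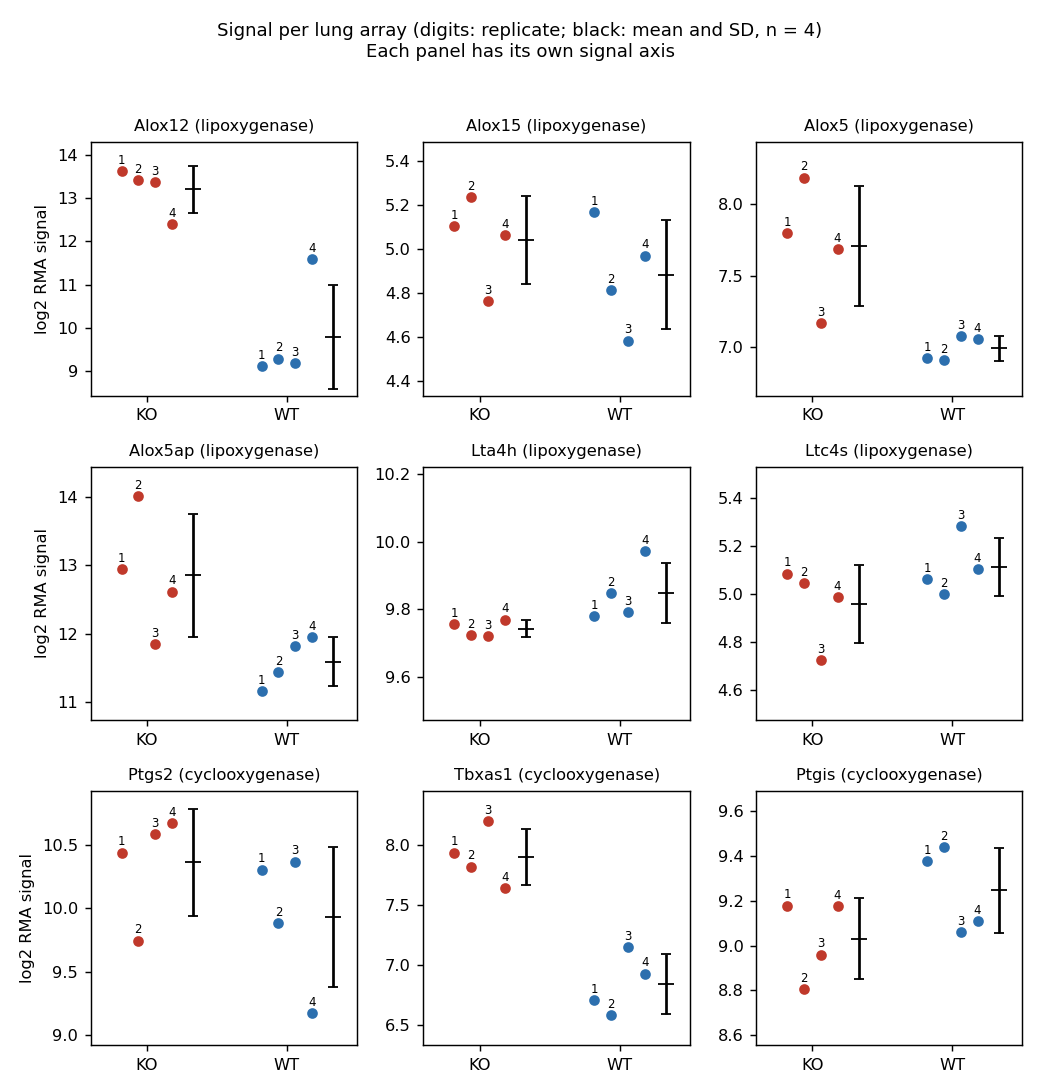
Log2 signal (vertical axis, scaled separately in each panel) of the 9 enzymes in the 4 KO lungs (red, left) and the 4 WT lungs (blue, right), with replicate numbers over the points and the mean and SD in black. Alox12 separates the groups by the widest margin although WT replicate 4 reads 11.59, Tbxas1 and Alox5 separate them without overlap, and in Alox5ap the KO lungs spread from 11.85 to 14.02.

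On the side of Alox12 that holds Alox15, neither neighbouring lipoxygenase was called. Alox12e, an epidermal lipoxygenase that is the only protein-coding gene between Alox12 and Alox15 in the GRCm38.p6 gene order, differed by 0.00 (SE 0.06, adjusted p = 0.989, limma), at a dim mean signal of 3.92 that limits what it can show. Alox15 encodes the 12/15-lipoxygenase of macrophages, eosinophils and airway cells. It read 5.10, 5.24, 4.77 and 5.06 in KO lungs, against 5.17, 4.81, 4.58 and 4.97 in WT lungs. The groups overlapped over most of their range, and the mean signal lay below the median of all features. The difference was 0.16 (SE 0.14, 95% CI -0.15 to 0.47, adjusted p = 0.711), so a change of the size of that in Alox12 lies outside its interval.

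Tbxas1, which turns the cyclooxygenase product prostaglandin H2 into thromboxane A2, a lipid that aggregates platelets and contracts vessels, is known from platelets and macrophages. It read 7.93, 7.82, 8.19 and 7.64 in KO replicates 1 to 4, against 6.70, 6.58, 7.14 and 6.93 in WT replicates 1 to 4 (feature TC0600000388.mm.1). The lowest KO lung, replicate 4, stood above the highest WT lung, replicate 3, and no array stood apart. The difference was 1.06 (SE 0.15, 95% CI 0.72 to 1.39, adjusted p = 0.0332, limma). The call held without KO replicate 4 (adjusted p = 0.0291) and without WT replicate 1 (0.0495). It was lost without any of the other 6 arrays, at adjusted p between 0.0604 and 0.126, while the difference stayed between 0.96 and 1.16. Few clusters of any gene were called in some of these fits, with 7 higher and 1 lower without KO replicate 1 and also without WT replicate 3.

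The genes with the nearest profile over the 8 arrays were listed for each of these enzymes. Profiles were centred on their own mean, and distance was the root mean square difference in log2 units. Profiles were not scaled, so a near gene must have a difference of similar size between KO and WT lungs. The 2 lists therefore had to differ, and that they do says nothing about the shape of the profiles. Nearest to Alox12 were Tubb1, the platelet beta-tubulin (0.163), Rgs18 (0.239), the platelet integrin subunit Itgb3 (0.260), the chemokine gene Ppbp (0.368) and Gp6, the platelet collagen receptor (0.433). Nearest to Tbxas1 were Tm4sf19 (0.157), the kinase Tec (0.165), the predicted gene Gm5507 (0.166), Rbm38 (0.170) and the kinase Prkcq (0.172). A small distance describes these 8 arrays only.

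Platelet and megakaryocyte markers moved with Alox12. All marker lists were chosen with earlier results of these data known, so counts in them are descriptions. Of 14 listed genes 10 were measured, and all 10 had an unadjusted p under 0.05 and read higher in KO lungs, beside 6.26% of genes. In 7 of the 10 every KO lung read above every WT lung, beside 4.32% of genes. The 3 that passed the call, beside 0.408% of genes called higher, were Tubb1, Itgb3 and Itga2b, the integrin subunit that marks the platelet lineage. The mean of the 10 was 11.76, 11.51, 11.49 and 10.62 in KO replicates 1 to 4, against 8.16, 8.60, 8.22 and 10.34 in WT replicates 1 to 4, so that KO replicate 4 was again the lowest KO lung and WT replicate 4 again far above the other WT lungs. Ppbp, the brightest of the list, was likewise lowest among KO lungs in replicate 4 (15.60) and highest among WT lungs in replicate 4 (15.50). Tbxas1 matched this only in part, since its highest WT value was that of replicate 3 and not replicate 4. The mean of interstitial macrophage and monocyte markers was, like Tbxas1, highest in replicate 3 of each group (9.23 in KO and 9.38 in WT lungs). That list averaged 8.82 in KO lungs and 9.02 in WT lungs, the opposite direction to Tbxas1. The mean of alveolar macrophage markers was lowest in replicate 3 of each group. Erythroid markers (3 of 7 measured) also read higher, with a list mean of 8.85 to 10.24 in KO lungs and 6.92 to 7.24 in WT lungs, and Alas2, with which red cell precursors begin to make haem, rose by 2.93 (adjusted p = 0.0410). The part that any of these lists played in the enzyme differences was not tested.

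**Figure D3:**
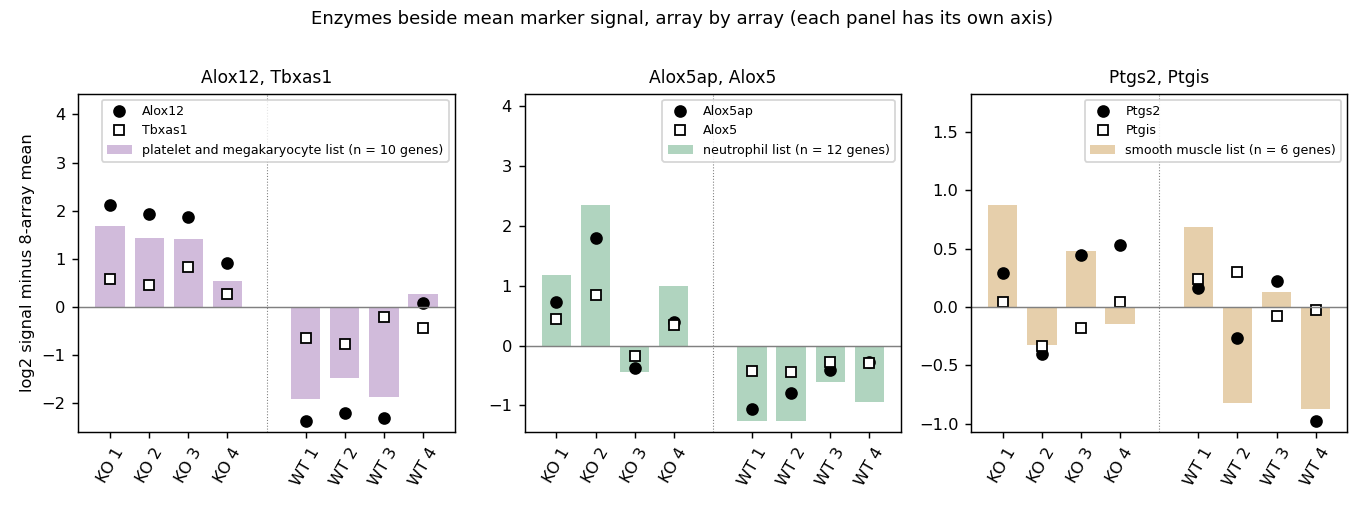
Log2 signal minus the 8-array mean (vertical axis) on each array, with KO replicates 1 to 4 left of the dotted line and WT replicates 1 to 4 right of it; bars are the mean of a cell type marker list and points are the enzymes named in the legend. WT replicate 4 stands above the other WT lungs in both Alox12 and the platelet list, and KO replicate 3 lies close to the WT lungs in Alox5ap, Alox5 and the neutrophil list.

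Alox5 and Alox5ap start leukotriene synthesis: 5-lipoxygenase oxidises arachidonic acid, and its activating protein, encoded by Alox5ap, presents the substrate. Alox5 read 7.80, 8.19, 7.17 and 7.69 in KO lungs, against 6.92, 6.91, 7.07 and 7.05 in WT lungs. The groups did not overlap, but KO replicate 3 stood only just above WT replicate 3. The difference was 0.72, a 1.65-fold change (SE 0.18, 95% CI 0.31 to 1.13), and missed the call at an adjusted p of 0.181 (0.0529 to 0.358 with any 1 array left out).

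Alox5ap had the second largest difference of the 9 and the widest spread among KO lungs. It read 12.95, 14.02, 11.85 and 12.62 in KO replicates 1 to 4, against 11.16, 11.44, 11.82 and 11.95 in WT replicates 1 to 4. KO replicate 3 lay between WT replicates 3 and 4, and the other KO lungs lay above all WT lungs. The difference was 1.26, or 2.40-fold (SE 0.40, 95% CI 0.36 to 2.17), with an adjusted p of 0.261 (limma). Leaving out 1 array gave differences between 0.88 and 1.60 and in no case a call.

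Neutrophils, monocytes and macrophages are the known sources of these proteins. All 12 listed neutrophil markers were measured, and 9 of them read higher in KO lungs at an unadjusted p under 0.05, with 0 called. The share of all genes at that p was 6.26% higher and 7.19% lower. The list mean was 10.07, 11.24, 8.44 and 9.88 in KO replicates 1 to 4, against 7.62, 7.63, 8.27 and 7.94 in WT replicates 1 to 4. KO replicate 2 was the highest and KO replicate 3 the lowest KO lung in the list, in Alox5 and in Alox5ap alike. KO replicate 2 is the female of its group, and the female WT lung, replicate 3, was also the highest WT lung in the list and in Alox5, though not in Alox5ap. In males only the difference was 0.59 for Alox5 (adjusted p = 0.409) and 0.95 for Alox5ap (adjusted p = 0.459). S100a9 and S100a8, the brightest of the list, read 12.42 and 11.26 in KO replicate 3 and 16.15 and 15.46 in KO replicate 2. Not every marker followed this order. Ltf was lowest among KO lungs in replicate 2 (7.75) and highest in replicate 3 (10.16), and Camp was lowest in KO replicate 1 (5.80). Alveolar macrophage markers (8 of 10 measured, 0 called) had a list mean of 8.18 to 8.96 in KO lungs and 8.57 to 8.73 in WT lungs, and interstitial macrophage and monocyte markers (9 of 10, 0 called) of 8.65 to 9.23 and 8.65 to 9.38. At an unadjusted p under 0.05, 0 alveolar macrophage markers differed. In the interstitial macrophage and monocyte list 1 was higher and 2 were lower in KO lungs, and 7 of the 9 differences were below 0. The mean of eosinophil markers stayed between 4.13 and 4.40 in KO lungs and between 4.24 and 4.35 in WT lungs. It lay below the median signal of every array, which limits what these markers can show. The part of these cells in the Alox5 and Alox5ap differences was not tested.

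The enzymes that finish the leukotrienes, Lta4h and Ltc4s, were not called either, and both differences were below 0. Lta4h, the hydrolase that makes leukotriene B4, read 9.76, 9.72, 9.72 and 9.77 in KO lungs, against 9.78, 9.85, 9.79 and 9.97 in WT lungs. Every KO lung lay below every WT lung, although KO replicate 4 and WT replicate 1 nearly met. The difference was -0.11 (SE 0.06, 95% CI -0.24 to 0.03, adjusted p = 0.553, limma).

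Ltc4s, the synthase of leukotriene C4 in mast cells and eosinophils, lay below the median signal of all features. It read 5.08, 5.04, 4.72 and 4.99 in KO lungs, against 5.06, 5.0, 5.28 and 5.10 in WT lungs, with overlapping groups and the lowest value in KO replicate 3. The difference was -0.15 (SE 0.10, 95% CI -0.37 to 0.07, adjusted p = 0.587). Mast cell and basophil markers (8 of 8 measured, 0 called) were also lowest in KO replicate 3, with a list mean of 5.38, 5.43, 5.01 and 5.37 in KO lungs and 5.08, 5.36, 5.11 and 5.08 in WT lungs. Most of these markers lay below the median signal of all features, which limits what they can show.

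In the cyclooxygenase branch, Ptgs2 is the inducible cyclooxygenase that supplies the common intermediate. It read 10.44, 9.75, 10.59 and 10.68 in KO replicates 1 to 4, against 10.31, 9.88, 10.37 and 9.17 in WT replicates 1 to 4. The groups overlapped, and the lowest value was that of WT replicate 4. The difference was 0.43 (SE 0.29, 95% CI -0.22 to 1.08, adjusted p = 0.611, limma) and was 0.18 without WT replicate 4, 0.64 without KO replicate 2 (adjusted p = 0.461) and 0.78 in males only (adjusted p = 0.467). Smooth muscle markers (6 of 6 measured, 0 called) varied across both groups, with a list mean of 12.03, 10.82, 11.63 and 11.01 in KO lungs and 11.84, 10.33, 11.28 and 10.28 in WT lungs, and KO replicate 2, WT replicate 2 and WT replicate 4, the lowest 3 arrays for Ptgs2, were also the lowest 3 of the list. The high end did not match. Ptgs2 was highest in KO replicate 4 (10.68), where the list mean was 11.01, and the list was highest in KO replicate 1 (12.03). Whether the variation of these markers bears on Ptgs2 was not tested.

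Ptgis, the prostacyclin synthase of endothelium, smooth muscle and fibroblasts, makes the lipid that relaxes vessels and restrains platelets. It read 9.18, 8.81, 8.96 and 9.18 in KO lungs, against 9.38, 9.44, 9.06 and 9.11 in WT lungs. KO replicates 1 and 4 lay within the WT range and KO replicates 2 and 3 below it. The difference was -0.22 (SE 0.12, 95% CI -0.48 to 0.05, adjusted p = 0.521, limma). Fibroblast markers (9 of 10 measured, 0 called) had list means of 10.35 to 10.73 in KO lungs and 10.71 to 10.98 in WT lungs, with 1 marker higher and 3 lower in KO lungs at an unadjusted p under 0.05, the 3 lower ones without overlap of the groups. Of all genes, 6.26% were higher and 7.19% lower at that p, and 4.67% were lower without overlap. The part of the fibroblast markers in the Ptgis values was not tested. Endothelial markers (9 of 10, 0 called, 3 higher and 1 lower at an unadjusted p under 0.05) had list means of 13.31 to 13.45 in KO lungs and 13.18 to 13.43 in WT lungs.

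Around these enzymes, 55 of 62 further genes of eicosanoid release, synthesis, inactivation and reception were measured. None was called. The count was 0 of 55 with limma, beside 0.467% of the 30176 genes. At so small a share, 0 calls among 55 genes is unremarkable. The plain test named in the methods called 0 of all 65956 clusters, so it cannot add to this. At an unadjusted p under 0.05 the limma count was 11 of 55, 8 higher and 3 lower in KO lungs. The share of genes was 13.5% (6.26% higher and 7.19% lower). Their median difference was 0.00, with 28 above and 27 below 0.

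**Figure D4:**
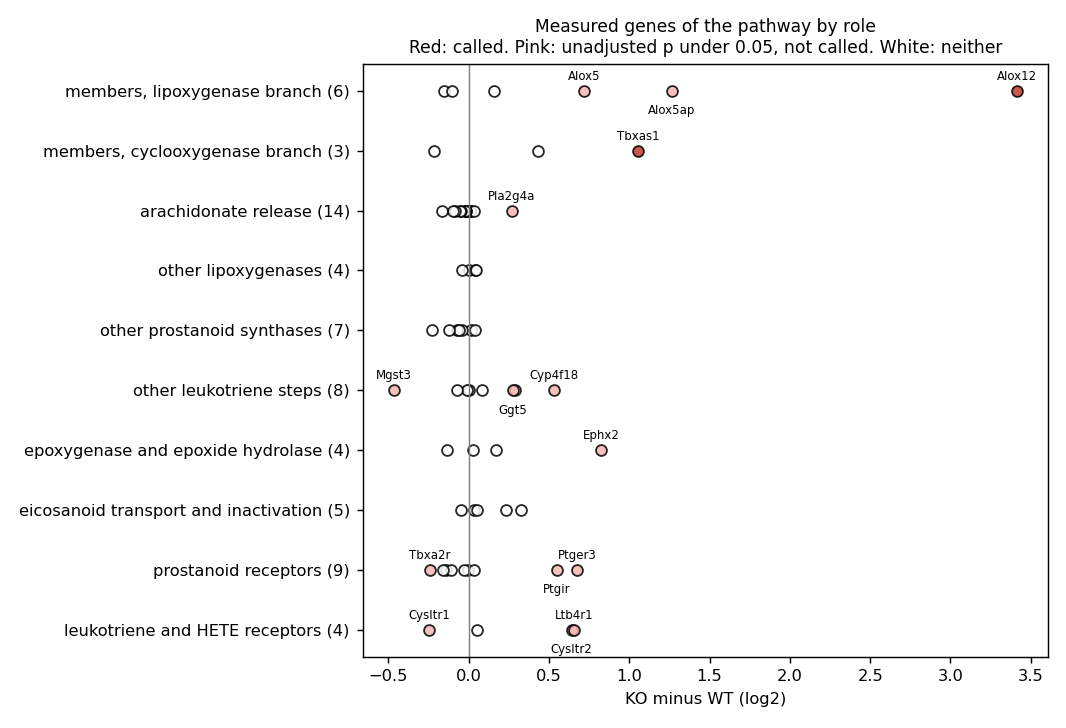
Difference between KO and WT lungs (log2, horizontal axis) of each measured gene, 1 point per gene, in rows by role with the number measured in brackets; red points were called, pink points had an unadjusted p under 0.05 without a call and are named, and white points had neither. Most rows gather around 0, and the receptors and the leukotriene steps hold most of the pink points.

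Among the 14 measured genes of arachidonate release, Pla2g4a, the cytosolic phospholipase that feeds both branches, had the smallest p. It read 9.0, 8.69, 9.08 and 8.78 in KO lungs, against 8.62, 8.63, 8.63 and 8.59 in WT lungs. The groups did not overlap, and the difference of 0.27 (SE 0.09) had an adjusted p of 0.288. Pla2g2d, a secreted phospholipase, differed by -0.17 (adjusted p = 0.448). The 4 other lipoxygenases, Alox8, Alox12b, Alox12e and Aloxe3, differed by -0.04 to 0.04. Of 7 other prostanoid synthases, 0 had an unadjusted p under 0.05, and Ptges, the inducible prostaglandin E synthase, differed by -0.12 and Hpgds, the haematopoietic prostaglandin D synthase, by -0.23.

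In later leukotriene steps (8 genes), Mgst3, a microsomal glutathione transferase, had the smallest p. It read 7.13, 6.73, 7.08 and 6.87 in KO lungs, against 7.40, 7.44, 7.32 and 7.53 in WT lungs. Each KO lung was below each WT lung, and the difference was -0.47 (SE 0.10, adjusted p = 0.105). Ggt5, the transferase that trims leukotriene C4 to D4, differed by 0.27 (adjusted p = 0.255). Of the epoxygenase route, Ephx2, the soluble hydrolase that inactivates epoxides of arachidonic acid, differed by 0.83 without overlap of the groups (SE 0.24, adjusted p = 0.229), and Ephx1 by 0.17. The prostaglandin transporter Slco2a1 and the inactivating dehydrogenase Hpgd differed by 0.33 and 0.23, and 0 of 5 genes of transport and inactivation had an unadjusted p under 0.05.

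Of the 55 genes, Ptger3, a receptor for prostaglandin E2, came closest to the call. It read 6.66, 6.75, 6.23 and 6.36 in KO lungs, against 5.86, 6.0, 5.69 and 5.76 in WT lungs. The groups were apart, and the difference was 0.68 (SE 0.12, adjusted p = 0.0723, limma). Ptgir, the prostacyclin receptor, differed by 0.55 (adjusted p = 0.199), with KO replicate 4 inside the WT range.

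Ltb4r1, the leukotriene B4 receptor of neutrophils, read 5.54, 6.04, 5.25 and 5.08 in KO lungs, against 5.07, 4.84, 4.77 and 4.61 in WT lungs. KO replicate 2 was highest here, as in Alox5 and Alox5ap, but the lowest KO lung was replicate 4 and not replicate 3. KO replicate 4 stood barely above WT replicate 1, the highest WT lung. The difference was 0.66 (SE 0.19, adjusted p = 0.234). Cysltr1, a receptor for cysteinyl leukotrienes, differed by -0.25 (adjusted p = 0.350). Of genes singled out after their values were seen, the thromboxane receptor gene Tbxa2r differed by -0.24 (adjusted p = 0.381), Cysltr2 by 0.64 (0.363) and Cyp4f18, which degrades leukotriene B4, by 0.53 (0.263).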

How the data were processed

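The deposited values are log2 signals of 65956 transcript clusters on 8 Clariom D mouse arrays. The authors made them from the scans by robust multi-array averaging (RMA) at default settings in Transcriptome Analysis Console v.4; this step subtracts background, gives every array the same distribution of signals (quantile normalisation) and combines the probes of a cluster. A shift common to most transcripts would therefore be lost. The variant of RMA and the build of the probe annotation are not given in the sources used here, and scanner files were not analysed here. The small number of animals, and no read depth, sets the precision.

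Groups and replicate numbers came from the titles. Symbols came from the platform annotation table (30638 clusters with 1 symbol, 2176 with several and 33142 with none), and the cluster with the highest mean stood for a gene. KO and WT were compared by linear models in limma 3.58.1 under R 4.3.3, with moderated variances, two-sided p-values and no covariate, and p was adjusted over all clusters by Benjamini-Hochberg. The call (adjusted p at or below 0.05, fold over 1.5) follows the thresholds of the methods. The script was tested on simulated data. Each p-value measures a difference against the variation among mice of a group. The genes, pathway lists, marker lists and motifs were chosen with earlier results of these data known. Named were all measured members, Atf4, from each pathway list the 2 genes with the smallest p, called or brightest markers of lists set beside a member, and the 5 nearest profiles of each called member. The fit was repeated after median-centring or cyclic loess, on the brighter clusters or a single cluster for each gene, with a variance trend and robust moderation, with weighted arrays, with a sex term, in males alone, with a replicate block, with each array left out, by a plain Student's t-test and at other thresholds. The paper names Student's t-test for comparisons of 2 groups in general, and its account of the array analysis names no test. Promoter sequences are those of RefSeq (GRCm38.p6). Figures were drawn with matplotlib 3.10.9.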

Additional observations from a re-analysis of the deposited data

Results flagged for a closer look

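Among 4 samples of a group, 1 value can lie so far from the others that it fails Dixon's test at 95%, and chance alone gives this in about 1 in 20 groups. Of 72 groups of values tested, 6 were marked. Alox12 in WT lungs was marked by the 11.59 of replicate 4, which lay above the 9.11 to 9.29 of the other WT lungs. Alox8 in KO lungs was marked by the 4.73 of replicate 2, and Ptgir in KO lungs by the 6.20 of replicate 4, which was low. The mean of mast cell and basophil markers was marked in both groups, by a low 5.01 in KO replicate 3 and a high 5.36 in WT replicate 2. The mean of interstitial macrophage and monocyte markers was marked in KO lungs by a high 9.23 in replicate 3, the lung with the lowest neutrophil, Alox5 and Alox5ap signal among KO lungs.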

How the results depend on the processing

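The count of 2 enzymes called (Alox12 and Tbxas1) was also 2 after median-centring, after cyclic loess, with only the brighter clusters, with 1 cluster per gene and with array weights. Both other thresholds (adjusted p at most 0.05 at any fold, and at most 0.1 with fold above 1.5) were looser and used the main fit. The 2 calls could not be lost there, and no further enzyme was added. The count over the other settings was lower. It was 1 with trend and robust eBayes (Tbxas1) and 0 with Student's t-test, with sex as a covariate and in males only. With any 1 array left out it lay between 0 and 1, and without WT replicates 1 and 4 together, a setting added after seeing the data, it was 1 (Alox12, adjusted p = 0.0149, against 0.111 for Tbxas1). The adjusted p ranged from 0.00207 to 0.313 for Alox12 and from 0.0229 to 0.207 for Tbxas1 over all settings, and both differences were positive in all 20 fits. In males only, 3 clusters of any gene were called higher and 1 lower. With the replicate number as a block, 0 of 9 enzymes and 0 clusters in all were called. Same-numbered samples did not deviate together (r of -0.04, 0.06, 0.03 and -0.19). These values were not set beside those of mismatched samples, so they cannot exclude pairing. The titles number the replicates and name no pairs. The cyclooxygenase median was 0.78 in males only and lay between 0.18 (without WT replicate 4) and 0.64 (without KO replicate 2) with 1 array left out, where the lipoxygenase median lay between 0.33 and 0.58. The Alox15 difference turned to -0.0064 in males only. The cause of these changes was not tested. Each gene had 1 cluster, so a second cluster could not be tried. With Student's t-test, 4 enzymes and 7261 clusters had an unadjusted p under 0.05 and 0 clusters passed adjustment.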
